A study of Mus musculus with 6 samples.

Results

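The nuclear genes for the subunits of the oxidative phosphorylation complexes were examined in whole small intestine of mouse embryos at E18.5, the last days of gestation. The 82 genes were taken by name from the 19938 genes of the deposited array table: symbols of the Ndufa, Ndufb, Ndufc, Ndufs and Ndufv series followed by a number, Sdha to Sdhd, all Uqcr genes and Cyc1, the Cox4 to Cox8 series and all Atp5 genes. By complex, 35 belong to complex I, 4 to complex II, 9 to complex III, 17 to complex IV and 17 to complex V. The 3 control samples carry the genotype label wildtype, and the 3 others a conditional knockout (cKO) of E-cadherin, the adhesion protein of epithelial junctions encoded by Cdh1. Both groups were taken at E18.5, rinsed, stored in RNA preservative and labelled with biotin in the same way, per the labels' protocols. The sources used here do not say which Cre line or other driver removed the gene, which exons were lost, or whether each sample came from its own animal. The p-values thus reflect only how far these 6 samples scatter, and that scatter may be technical.

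Oxidative phosphorylation couples the oxidation of nutrients to ATP synthesis at the inner mitochondrial membrane. Complexes I and II pass electrons from NADH and succinate to ubiquinone, complex III passes them on to cytochrome c and complex IV to oxygen. The proton gradient built on the way drives complex V, the ATP synthase. Absorptive enterocytes of the late fetal and newborn gut are rich in mitochondria, which fuel nutrient uptake and oxidise fatty acids. Most subunits are encoded in the nucleus, imported and joined to a few made from mitochondrial DNA.

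The subunit genes were lower in the cKO as a group. On the log2 scale 79 of the 82 differences (cKO minus control) were below 0, with a median of -0.39, which is 76.5% of the control level, against a median of -0.09 over all genes. With limma across all genes and Benjamini-Hochberg adjustment, 28 of the 82 fell (adjusted p under 0.05) and 0 rose, where 7.36% of all genes tested fell and 6.81% rose. For 69 of the 82 the highest cKO value was lower than the lowest control value, as for 19.3% of all genes, and for 1 (Ndufa4l2) the order was the opposite, as for 16.0% of all genes. In whole tissue, fewer cells of a type and less RNA per cell cannot be told apart.

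With each array centred on its median, 77 differences stayed below 0, the median was -0.29 against 0.01 for all genes, and 9 genes fell, where 5.47% of all genes fell. With this centring 1 gene rose, Ndufa4l2, where 7.47% of all genes rose. The 9 genes were Ndufa6, Ndufb9, Ndufa13, Sdhd, Sdhb, Uqcrq, Cox7a2l, Cox4i1 and Cox6c, all among the 28 called on the values as deposited. The count of 28 rested on every array: it was 10, 2 and 5 without control 1, 2 and 3, and 13, 17 and 5 without cKO 1, 2 and 3. Without control 2 the share of the subunit genes called lower, 2.44%, was below that of all genes, 3.60%. The median over the 82 genes moved less, from -0.43 to -0.33 over these 6 fits. With the replicate number as a block the count was 10, where 6.13% of all genes fell. The lost calls listed gene by gene below leave out this setting, and several of those calls were lost with it too.

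**Figure D1:**
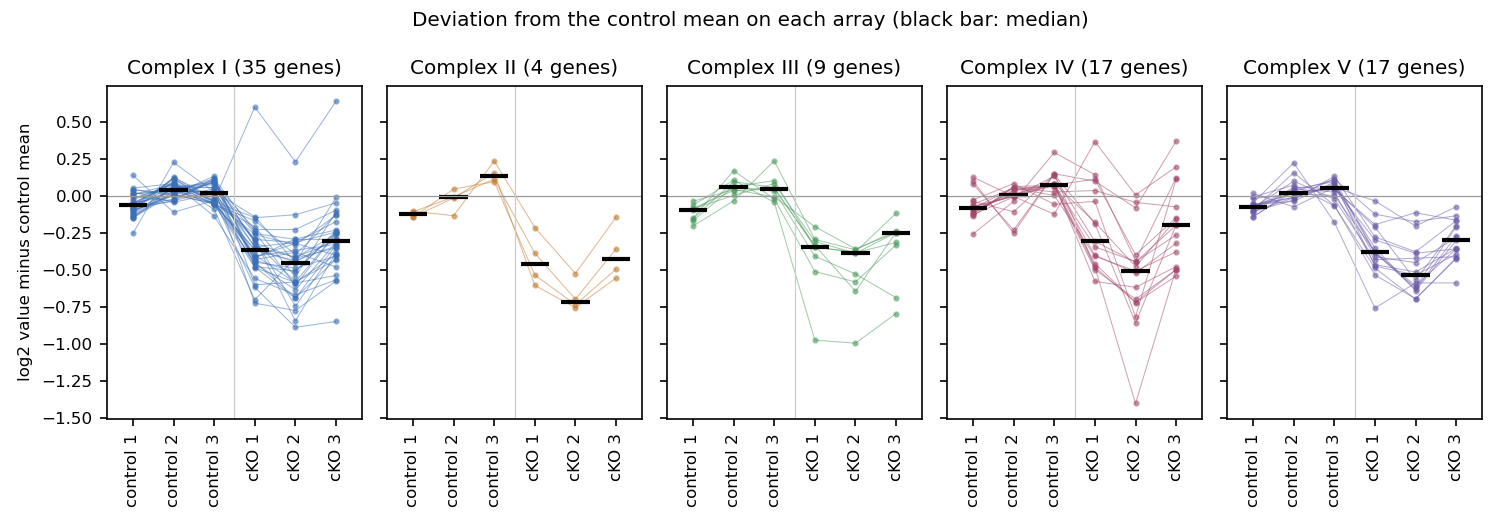
Each thin line is 1 gene and each panel 1 complex. The vertical axis gives the log2 value on each of the 6 arrays minus that gene's control mean, and black bars are medians over the genes of the complex. All medians on cKO arrays lie below those on control arrays, and cKO 2 is the lowest in each panel.

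Across the arrays, the median deviation of the 82 genes from their control means was -0.08, 0.03 and 0.06 on control arrays 1 to 3, against -0.36, -0.51 and -0.30 on cKO arrays 1 to 3. The cKO 2 array held the lowest of the 6 values for 66 of the 82 genes. On that array the median of all probe sets was 6.17, against 6.44 to 6.50 on the other 5, while its 75th percentile, 7.91, lay close to theirs (7.96 to 7.97). The median deviation of all genes on cKO 2 was -0.23 and that of the brighter 50% of genes -0.06. After median centring the deviations of the 82 genes were -0.38, -0.22 and -0.28 on cKO 1, 2 and 3. On this scaling cKO 2 was the highest of the cKO arrays. The same centring put the median deviation of the brighter 50% of genes on cKO 2 at 0.23. Of the 82 genes, 77 stayed when the dimmer 50% of genes were dropped. The part of array scaling in the order of the cKO arrays was not tested further.

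The targeted gene Cdh1 stood at 9.86, 9.82 and 10.15 on the control arrays, against 9.70, 8.38 and 8.91 on the cKO arrays. The groups did not overlap, and the difference of -0.95 (SE 0.31) gave a limma adjusted p of 0.088 and an exact two-sided permutation p of 0.1, the smallest that 3 against 3 allows. Without cKO 1, whose value is the nearest to the controls, the difference was -1.30 (limma adjusted p = 0.012). No source used here says whether its probes fall inside the deletion. Between arrays the correlation over genes was 0.981 to 0.987 within controls, 0.972 to 0.978 within cKO and 0.929 to 0.966 between the groups.

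Because the subunit genes lay lower together, the promoters of 5 of them are shown, for each complex the called gene with the smallest p that has an entry in the RefSeq promoter table (build GRCm38.p6, 250 bases before to 50 after the start, written 5′ to 3′ on the gene's strand). Of the 82 genes, 66 have an entry. Capitals mark matches, on either strand, to motifs of factors known for respiratory genes: the NRF1 core GCGCANGCG, the ETS site CCGGAAG that GABP binds, the YY1 core ATGGCGG and the core AAGGTCA of the estrogen-related receptors.
Ndufa6, chr15:82354242-82354541, minus strand: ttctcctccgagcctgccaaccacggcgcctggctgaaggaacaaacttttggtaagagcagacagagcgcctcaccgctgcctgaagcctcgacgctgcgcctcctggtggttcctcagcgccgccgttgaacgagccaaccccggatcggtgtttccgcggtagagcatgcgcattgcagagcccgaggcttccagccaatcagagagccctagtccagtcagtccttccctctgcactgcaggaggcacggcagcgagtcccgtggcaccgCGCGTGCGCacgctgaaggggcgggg
Sdhd, chr9:50603800-50604099, minus strand: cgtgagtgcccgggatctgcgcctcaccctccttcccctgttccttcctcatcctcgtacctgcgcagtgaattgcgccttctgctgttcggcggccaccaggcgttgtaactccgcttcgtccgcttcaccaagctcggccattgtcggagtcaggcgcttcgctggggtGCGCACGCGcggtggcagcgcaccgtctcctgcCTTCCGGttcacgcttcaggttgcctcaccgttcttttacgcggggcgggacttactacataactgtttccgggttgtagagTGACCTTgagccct
Uqcrh, chr4:116075021-116075320, minus strand: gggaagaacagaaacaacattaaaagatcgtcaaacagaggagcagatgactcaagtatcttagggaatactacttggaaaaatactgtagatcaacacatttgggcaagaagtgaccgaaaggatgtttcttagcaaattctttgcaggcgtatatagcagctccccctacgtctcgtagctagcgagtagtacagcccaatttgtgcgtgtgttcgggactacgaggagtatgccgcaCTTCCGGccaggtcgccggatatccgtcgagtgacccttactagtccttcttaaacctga
Cox6a1, chr5:115348909-115349208, minus strand: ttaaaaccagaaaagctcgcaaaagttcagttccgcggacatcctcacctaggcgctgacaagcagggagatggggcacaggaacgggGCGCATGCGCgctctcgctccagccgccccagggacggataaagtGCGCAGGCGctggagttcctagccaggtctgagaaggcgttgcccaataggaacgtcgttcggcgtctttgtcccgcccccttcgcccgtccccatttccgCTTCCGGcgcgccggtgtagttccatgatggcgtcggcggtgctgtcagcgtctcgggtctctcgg
Atp5md, chr19:47090598-47090897, minus strand: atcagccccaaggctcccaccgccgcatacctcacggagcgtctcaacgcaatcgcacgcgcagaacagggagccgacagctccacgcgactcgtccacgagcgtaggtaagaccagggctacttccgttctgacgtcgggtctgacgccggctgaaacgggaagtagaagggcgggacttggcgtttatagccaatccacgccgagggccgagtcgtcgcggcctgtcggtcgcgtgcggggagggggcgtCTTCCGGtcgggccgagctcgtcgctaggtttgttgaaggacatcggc

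The Cox6a1 promoter held 3 matches to the NRF1 core, of which 2 overlap as both strands of 1 stretch, and 1 ETS site. The Sdhd promoter held an NRF1 core, an ETS site and an estrogen-related receptor core. The Ndufa6 promoter held 1 NRF1 core, and those of Uqcrh and Atp5md 1 ETS site each. Over the 66 genes the NRF1 core was found in 28.8%, the ETS site in 25.8%, the YY1 core in 15.2% and the receptor core in 10.6%. Among all 17492 protein-coding genes in the same table the shares were 9.63%, 12.9%, 6.05% and 4.73%. The ETS site stood in 10 of the 24 called genes with an entry and in 7 of the other 42. The NRF1 core stood in 5 of the 24 and 14 of the 42, the YY1 core in 2 and 8, and the receptor core in 4 and 3. These are letter matches in a fixed window, given as a description with no test.

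Complex I takes electrons from NADH. Of its 35 genes 12 fell and 0 rose, with a median difference of -0.38 and a range from -0.78 to 0.49. In 30 of them the cKO values lay below the controls without overlap. Beside the counts of this and the other complexes, 7.36% of all genes fell, 6.81% rose and 19.3% lay below the controls without overlap. Ndufa6, a small LYR-motif protein on the matrix arm, read 10.23, 10.45 and 10.30 on the control arrays, against 9.71, 9.44 and 9.48 on the cKO arrays. The difference of -0.78 (SE 0.13, 95% interval -1.08 to -0.49, limma adjusted p = 0.0074) is the largest fall of the complex, to 58.1% of the control level. Its call held under all 16 other settings and left-out arrays tried.

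Ndufb9, another LYR-motif subunit, on the membrane arm, read 10.14, 10.31 and 10.31 on the control arrays, against 9.53, 9.48 and 9.68 on the cKO arrays, a fall of 0.69 on the log2 scale (SE 0.12, limma adjusted p = 0.0088). Ndufa13, also known as GRIM-19, read 9.82, 9.85 and 9.63 against 9.21, 9.10 and 9.20 and fell by 0.60 (SE 0.11). Ndufb11, a membrane arm subunit with X-linked disease variants in people, read 10.32, 10.28 and 10.23 against 9.88, 9.69 and 9.74 and fell by 0.51 (SE 0.11). In these genes the groups lay well apart. The calls of Ndufb9 and Ndufa13 were lost without control 2 (adjusted p = 0.054 and 0.081), that of Ndufa13 also without control 1 or cKO 3, and that of Ndufb11 with median centring (0.071), quantile normalization (0.072) and without control 1, 2 or 3 or cKO 3 (0.065 to 0.10).

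Of the 12 calls in complex I, 7 were Ndufb genes on the values as deposited. With median centring 3 calls remained in the complex (Ndufa6, Ndufb9 and Ndufa13), of which 1 was an Ndufb gene. Of the 9 Ndufb genes, which encode accessory subunits of that arm, 7 fell (Ndufb2, Ndufb3, Ndufb5, Ndufb7, Ndufb8, Ndufb9 and Ndufb11), with a median of -0.47. Ndufb10 differed by -0.35 (adjusted p = 0.080) and Ndufb6 by -0.11 (95% interval -0.36 to 0.15). Of the 14 Ndufa genes 4 fell (Ndufa3, Ndufa4, Ndufa6 and Ndufa13), and of the 2 Ndufc genes Ndufc1 fell while Ndufc2 differed by -0.38 (adjusted p just above the threshold). Of the 7 Ndufs and 3 Ndufv genes 0 passed in this limma fit. Among them are the 6 measured subunits of the catalytic core (Ndufs1, Ndufs3, Ndufs7, Ndufs8, Ndufv1 and Ndufv2). This set includes the subunits with the flavin and the iron-sulfur clusters. The 6 core genes nevertheless all lay below the controls without overlap, by -0.33 to -0.41 with a median of -0.37, near the median of -0.38 for the 27 accessory genes. At this size of difference a call or its absence does not separate core from accessory genes, and no test of their difference was made.

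Ndufa4l2 went the other way. It encodes a paralog of Ndufa4 known as a target of hypoxia-inducible factors, and its values were 7.16, 6.91 and 6.99 on the control arrays, against 7.62, 7.25 and 7.66 on the cKO arrays. All cKO values were above the controls, and the difference of 0.49 (SE 0.15, 95% interval 0.14 to 0.84) did not pass as deposited (adjusted p = 0.071). With median centring it was 0.59 (adjusted p = 0.020), and 7 of 16 other settings and left-out arrays called it, with adjusted p from 0.0036 to 0.23. Ndufa4, named for complex I but now placed in complex IV, read 11.30, 11.40 and 11.38 against 10.88, 10.67 and 11.03 and fell by 0.50 (SE 0.13, limma adjusted p = 0.040), a call lost with median centring (0.065), quantile normalization (0.14), cyclic loess (0.079) and without any 1 of the 6 arrays (up to 0.15).

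Complex II, succinate dehydrogenase, joins the citric acid cycle to the respiratory chain and is wholly encoded in the nucleus. Its 4 genes had a median difference of -0.53, and 2 fell. Sdhd, the small membrane anchor, read 10.84, 10.97 and 11.14 on the control arrays, against 10.38, 10.23 and 10.43 on the cKO arrays and fell by 0.64 (SE 0.13, limma adjusted p = 0.016). Sdhb, the iron-sulfur subunit, read 10.36, 10.55 and 10.60 against 9.97, 9.77 and 10.01 and fell by 0.59 (SE 0.13, limma adjusted p = 0.022). Both calls held with median centring and were lost without control 2 or 3, that of Sdhb also without cKO 3.

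Sdhc, the large membrane anchor, read 10.65, 10.75 and 10.87 on the control arrays, against 10.37, 10.06 and 10.40 on the cKO arrays, a difference of -0.48 (SE 0.14, adjusted p = 0.057). Sdha, the flavoprotein that oxidises succinate, read 11.02, 10.99 and 11.36 against 10.91, 10.60 and 10.98, a difference of -0.29 (SE 0.16, adjusted p = 0.27). In all 4 genes the groups were apart, though for Sdha cKO 3 lay only just under the lowest control.

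Complex III moves electrons from ubiquinol to cytochrome c. Its 9 measured genes had a median of -0.35, all with differences below 0 and 8 with groups apart, and 2 fell. Uqcrq, a small subunit beside cytochrome b, read 10.09, 10.26 and 10.11 on the control arrays, against 9.18, 9.16 and 9.36 on the cKO arrays. It fell by 0.92 (SE 0.12, 95% interval -1.19 to -0.65, limma adjusted p = 0.0032), to 52.9% of the control level, the largest fall among the 82 genes. Its call held under all 16 other settings and left-out arrays tried. Uqcrh, the acidic hinge protein beside cytochrome c1, read 10.53, 10.69 and 10.66 against 10.22, 10.10 and 9.94 and fell by 0.54 (SE 0.12, limma adjusted p = 0.026), a call lost with median centring (0.086), quantile normalization (0.078) and without control 1, 2 or 3 or cKO 3 (0.054 to 0.12).

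The other 7 genes of complex III did not pass. Uqcr10 read 9.26, 9.58 and 9.39 on the control arrays, against 8.90, 8.83 and 9.08 on the cKO arrays (difference -0.47, adjusted p = 0.055). Uqcr11 read 8.39, 8.51 and 8.52 against 8.14, 7.83 and 8.23 (-0.41, adjusted p = 0.096). Both encode small subunits, and both groups were apart.

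Cyc1, the gene of cytochrome c1, read 10.81, 11.06 and 11.02 on the control arrays, against 10.62, 10.58 and 10.65 on the cKO arrays (-0.35, adjusted p = 0.093). Uqcrfs1, the Rieske iron-sulfur protein, read 9.54, 9.71 and 9.98 against 9.45, 9.38 and 9.51 (-0.30, adjusted p = 0.21). These are the catalytic nuclear subunits of the complex, and in both the highest cKO value came close to the lowest control.

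The core proteins Uqcrc1 and Uqcrc2 read 11.20, 11.43 and 11.47 against 11.02, 10.99 and 11.25 (-0.28, adjusted p = 0.21) and 11.29, 11.38 and 11.46 against 11.07, 10.99 and 11.13 (-0.31, adjusted p = 0.11). Uqcrb, a small matrix-side subunit, read 11.34, 11.42 and 11.37 against 11.17, 11.02 and 11.13 (-0.27, adjusted p = 0.14). Uqcrc1 is the gene of this complex whose groups overlapped.

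Complex IV, cytochrome c oxidase, reduces oxygen, and several of its nuclear subunits exist in forms for different tissues. Of 17 genes 5 fell and 0 rose, with a median of -0.35. The 10 widely expressed forms had a median of -0.42, and 9 had groups apart. The 7 forms known mainly from muscle, lung or testis had a median of -0.06 as deposited and 0.04 with median centring, and 0 of them passed. Of these 7, Cox7b2 was below the background level on all 6 arrays, Cox8c on 5 and Cox8b on 3. Background here is the level under which 95% of 1227 olfactory, vomeronasal and taste receptor genes lie on an array (5.79 to 6.36). The median of the 7 forms rests in part on these dim genes, so it does not show that tissue forms were unchanged. The brightest of the 7, Cox7a1, differed by -0.79.

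**Figure D2:**
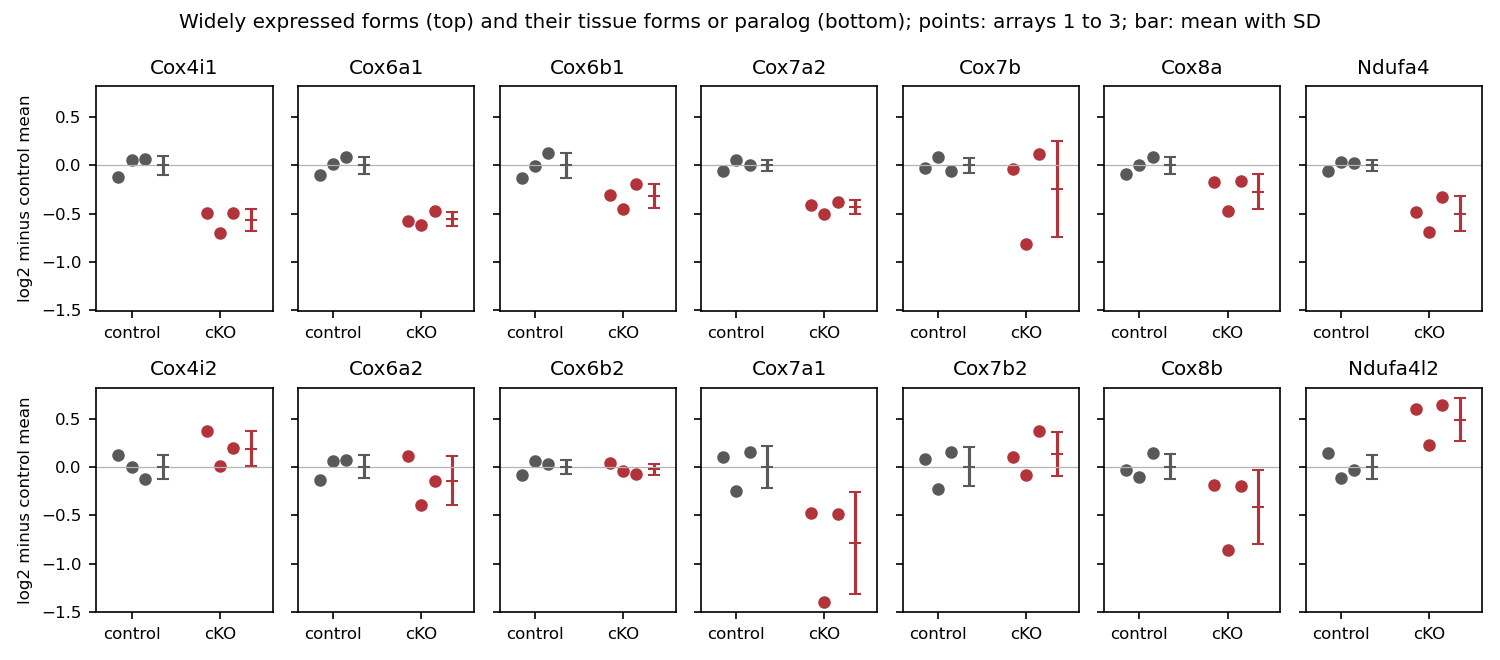
Each panel is 1 gene, with the log2 value minus the control mean on each array as points (grey control, red cKO, 3 arrays each) and the mean with SD beside them. The widely expressed Cox4i1, Cox6a1 and Cox7a2 fell with no overlap, while Cox4i2 and Cox6b2 overlapped with controls and the paralog Ndufa4l2 lay above them. Not all genes followed this split. The muscle form Cox7a1 lay below the controls (-0.79, limma adjusted p = 0.093), and the widely expressed Cox7b overlapped with them.

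Cox4i1, the common form of subunit 4, read 10.73, 10.90 and 10.91 on the control arrays, against 10.35, 10.15 and 10.35 on the cKO arrays and fell by 0.56 (limma adjusted p = 0.021). Its counterpart Cox4i2, known from lung and oxygen-sensing cells, read 6.92, 6.79 and 6.67 against 7.16, 6.80 and 6.99, a difference of 0.19 (95% interval -0.13 to 0.51, adjusted p = 0.40) with overlapping groups. Cox6a1 read 10.88, 10.99 and 11.06 against 10.40, 10.36 and 10.50 and fell by 0.56 (SE 0.11, limma adjusted p = 0.017). Its counterpart in heart and skeletal muscle, Cox6a2, read 6.81, 7.01 and 7.02 against 7.06, 6.55 and 6.80 (-0.14, adjusted p = 0.58), again with overlap. The call of Cox6a1 was lost with median centring (0.0502) and without control 2 or 3, and that of Cox4i1 with quantile normalization (0.057) and without control 2, control 3 or cKO 3.

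Cox7a2 read 10.80, 10.91 and 10.86 on the control arrays, against 10.45, 10.35 and 10.48 on the cKO arrays and fell by 0.43 (SE 0.11, limma adjusted p = 0.036), a call lost with median centring (0.13), quantile normalization (0.17), cyclic loess (0.073) and without any 1 array. Its muscle counterpart Cox7a1 read 9.48, 9.13 and 9.53 against 8.90, 7.98 and 8.89. It had the largest difference of the complex, -0.79 (SE 0.26), with groups apart but a cKO 2 value far below the rest, and did not pass (adjusted p = 0.093). Cox7a2l, a factor that joins complexes III and IV into supercomplexes, read 9.68, 9.75 and 9.82 against 9.27, 9.03 and 9.21 and fell by 0.58 (SE 0.12, limma adjusted p = 0.017). Its call held with median centring (0.030) and was lost without control 2, control 3 or cKO 3. Cox7a1, at 57.8% of the control level, and Cox8b, near background, were the tissue forms whose cKO values all lay below the controls.

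Cox6b1, the subunit on the side of cytochrome c, read 10.96, 11.08 and 11.22 on the control arrays, against 10.78, 10.64 and 10.89 on the cKO arrays (-0.32, adjusted p = 0.15). The testis form Cox6b2 read 7.06, 7.20 and 7.17 against 7.18, 7.10 and 7.07 (-0.03, 95% interval -0.28 to 0.22). Cox8a read 11.69, 11.78 and 11.86 against 11.60, 11.30 and 11.62 (-0.27, adjusted p = 0.22). Groups were apart in Cox6b1 and Cox8a and overlapped in Cox6b2.

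The muscle form Cox8b read 6.27, 6.20 and 6.45 in controls against 6.12, 5.45 and 6.11 in cKO (-0.41, adjusted p = 0.22), near background. Cox8c, known from testis, read 5.71, 5.93 and 6.26 against 6.11, 5.53 and 6.09. Cox7b2, also known from testis, read 4.17, 3.86 and 4.24 against 4.19, 4.01 and 4.46. These values lie near or below background, so no level can be read for these forms. Cox7b read 11.01, 11.12 and 10.98 against 11.00, 10.22 and 11.15. Its difference of -0.25 (adjusted p = 0.53) came from cKO 2 alone and was 0.04 without that array.

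Of the remaining subunits, Cox6c read 11.40, 11.54 and 11.58 on the control arrays, against 11.05, 10.79 and 11.01 on the cKO arrays and fell by 0.56 (SE 0.12, limma adjusted p = 0.024), also with median centring (0.037). Its call was lost with quantile normalization (0.065), with cyclic loess (0.0503) and without control 2, control 3 or cKO 3. Cox5a differed by -0.41 (adjusted p = 0.057) and Cox5b by -0.35 (adjusted p = 0.081), both with groups apart.

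Complex V makes ATP with a catalytic F1 head turned by a ring of c subunits in the membrane, and a peripheral stalk holds the head still. Of its 17 genes 7 fell and 0 rose, with a median of -0.42. All differences were below 0 and 16 of 17 had groups apart, but none of the 7 calls held with median centring, where the adjusted p of these genes ran from 0.0515 to 0.17 and the median was -0.32. Each of the 7 calls was also lost without control 1, control 2 or cKO 3, among others.

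Among the small membrane subunits, Atp5md, also known as DAPIT, read 10.94, 11.21 and 10.81 on the control arrays, against 10.23, 10.40 and 10.40 on the cKO arrays and fell by 0.64 (SE 0.14, limma adjusted p = 0.022). Atp5l, subunit g, read 9.45, 9.70 and 9.48 against 9.01, 8.85 and 9.12 and fell by 0.55 (SE 0.13, limma adjusted p = 0.030). Atp5j2, subunit f, also fell, and Atp5k and Atp5mpl did not pass (-0.33 and -0.43). Thus 3 of these 5 genes fell, with a median of -0.45, and groups were apart in all of them.

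In the peripheral stalk 3 of 4 genes fell, Atp5j, Atp5h and Atp5pb, with a median of -0.43. Atp5j, coupling factor 6, read 11.42, 11.54 and 11.52 on the control arrays, against 11.03, 10.98 and 11.14 on the cKO arrays (-0.44, SE 0.11, limma adjusted p = 0.035). Atp5o, which ties the stalk to the head, differed by -0.38 (adjusted p = 0.061).

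The F1 head had a smaller median, -0.27, and 1 of its 5 genes fell. This was Atp5e, subunit epsilon, at 9.33, 9.41 and 9.27 on the control arrays, against 8.85, 8.64 and 8.92 on the cKO arrays (-0.53, SE 0.12, limma adjusted p = 0.027). The catalytic pair Atp5a1 and Atp5b differed by only -0.14 (95% interval -0.40 to 0.11) and -0.16 (-0.40 to 0.09). Atp5c1 and Atp5d differed by -0.35 and -0.27 (adjusted p = 0.071 and 0.19). Groups were apart in all 5, and for Atp5a1 and Atp5b the sign turned with cyclic loess (0.042 and 0.040), for Atp5a1 also with quantile normalization (0.024).

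The c ring is made from 3 genes with the same mature protein. Atp5g1 read 10.06, 10.08 and 10.21 on the control arrays, against 9.73, 9.50 and 9.91 on the cKO arrays (-0.40, adjusted p = 0.098). Atp5g3 read 11.63, 11.80 and 11.88 against 11.39, 11.14 and 11.50 (-0.43, adjusted p = 0.085). Atp5g2 read 10.86, 10.77 and 10.90 against 10.81, 10.64 and 10.77 (-0.10, adjusted p = 0.58). The groups were apart in Atp5g1 and Atp5g3 and overlapped in Atp5g2. Atpif1, the inhibitor of the synthase, lies outside the 82 by its symbol. It read 11.65, 11.74 and 11.76 on the control arrays, against 11.30, 11.12 and 11.20 on the cKO arrays, and fell by 0.51 (SE 0.11, limma adjusted p = 0.022), a call lost with median centring (0.062), quantile normalization (0.055), cyclic loess (0.058) and without control 1, 2 or 3 or cKO 3.

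**Figure D3:**
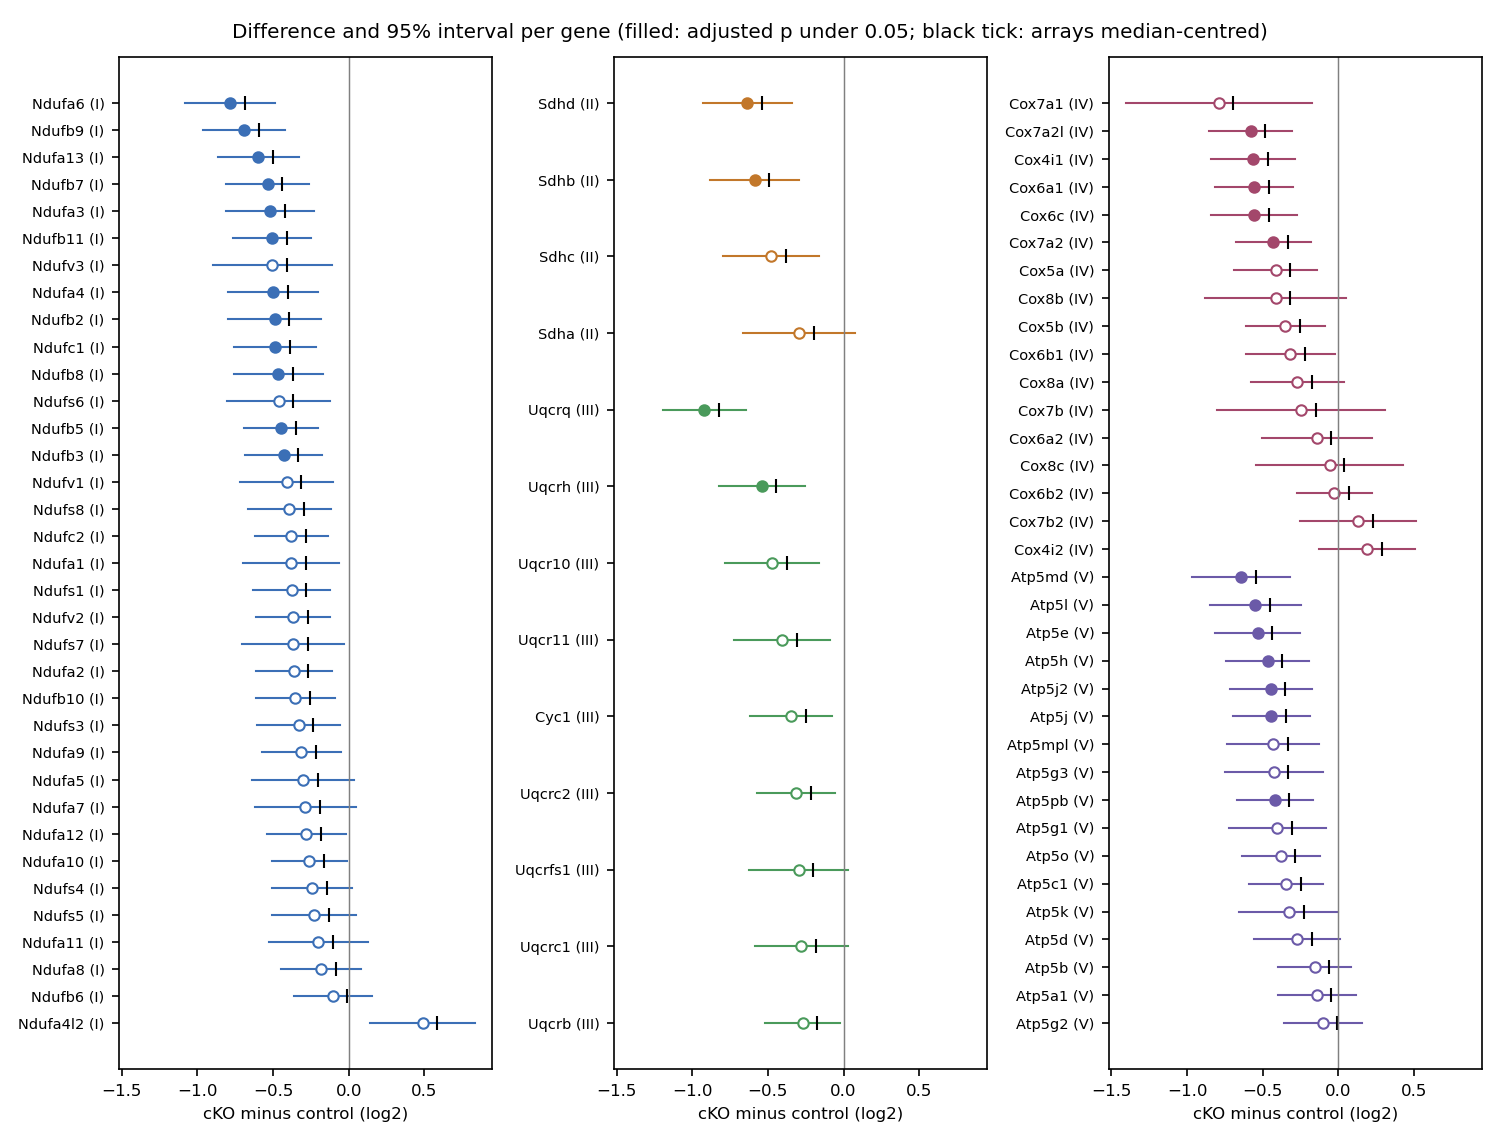
Points give cKO minus control (log2) for each of the 82 genes with the 95% interval of the limma fit, grouped by complex (in parentheses). Filled points passed an adjusted p of 0.05 (28 genes), and black ticks give the difference with each array median-centred. Nearly all points lie left of 0, with Ndufa4l2 the farthest to the right.

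Sequence sharing limits how exactly some genes can be told apart. Of the 82 genes 16 had several probe sets, of which the brightest was used. The differences of a gene's probe sets had 1 sign in all 16 and agreed within 0.1 in 14, the largest gap being 0.17 for Ndufb11. Near-identical gene copies could add signal to such probe sets. Probe sets listed for 2 symbols were left out: 3 for Cox7c with a copy (-0.46 to -0.48), 2 for Ndufb4 with a copy (-0.65 and -0.67) and 1 for Ndufs5 with a pseudogene (-0.29), all without a test. Cox7c and Ndufb4 are therefore not among the 82, while Ndufs5 is, through a probe set of its own.

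The other genes of mitochondrial respiration are given by counts and medians, beside those of all genes (7.36% fell and 6.81% rose, median -0.09). These lists were compared with the subunit genes by description only. Of 43 assembly factors for the complexes, 7 fell and 0 rose, with a median of -0.14. Tmem126b, which assembles the membrane arm of complex I, fell by 0.75 (SE 0.11), the copper chaperone gene Cox17 by 0.57 and Cox14 by 0.55. The count ranged from 1 (without control 2) to 13 (array weights), and of these 3 genes only Tmem126b kept its call without control 2.

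Of 17 genes of pyruvate dehydrogenase and the citric acid cycle 3 fell and 0 rose, with a median of -0.22. All 3 encode succinyl-CoA synthetase, whose product succinate feeds complex II: Suclg1 fell by 0.61, Suclg2 by 0.59 and Sucla2 by 0.65. These calls were lost with median centring (adjusted p = 0.053 to 0.069) and without control 2, that of Sucla2 also without control 3 or cKO 3.

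Of 20 electron carriers and enzymes that feed the ubiquinone pool, 5 fell and 1 rose, with a median of -0.09. Etfb and Etfdh, which pass electrons from fatty acid oxidation to ubiquinone, fell by 0.83 (SE 0.11) and 0.80 (SE 0.13), and Coq9, of ubiquinone synthesis, by 0.77. Gpd2, the mitochondrial glycerol phosphate dehydrogenase, rose by 1.21 (SE 0.18), from 7.41, 7.76 and 8.07 to 8.94, 8.84 and 9.08. The calls of these 4 genes held under all 16 other settings and left-out arrays tried. The remaining genes of the list that fell each lost their call in 3 of the 16.

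Of 20 regulators of mitochondrial biogenesis and DNA upkeep 4 fell and 1 rose, with a median of -0.04. Esrra, the estrogen-related receptor alpha that switches on respiratory genes, read 8.91, 9.09 and 9.15 on the control arrays, against 8.20, 7.81 and 8.06 on the cKO arrays and fell by 1.03 (SE 0.14, limma adjusted p = 0.0041). Ppara, a nuclear receptor of fatty acid oxidation, fell by 1.09 (SE 0.17), and Polg, the mitochondrial DNA polymerase, by 0.80 (SE 0.11). These 3 calls held under all 16 other settings and left-out arrays tried.

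Ppargc1a, the PGC-1 alpha coactivator, named after its values were seen, was at or below background on all 3 cKO arrays. Its difference was -0.95 (95% interval -1.52 to -0.37, limma adjusted p = 0.042). The call was lost without control 1, 2 or 3, cKO 2 or cKO 3. With the mean cKO background in place of its cKO values, the control mean was 1.58-fold higher. That figure leaves out the scatter between arrays and is not a lower limit. Pprc1, a related coactivator, rose by 0.62 (adjusted p = 0.047), a call lost with median centring (0.055), quantile normalization (0.055), cyclic loess (0.063) and without any array but cKO 1. Nrf1 and Gabpa, whose motifs are marked in the promoters above, differed by 0.20 and 0.09 (adjusted p = 0.28 and 0.68). The 2 mitochondrial DNA-encoded transcripts measured, ND3 and COX2, differed by -0.43 (adjusted p = 0.060) and -0.21 (0.26). Of 9 further respiratory genes outside the naming rule 0 fell and 1 rose, with a median of -0.31. Of the 9, 7 differences were below 0 and 5 had all cKO values below the controls, among them Dmac2 (-0.46, adjusted p = 0.057) and Ndufab1, the acyl carrier protein of complex I (-0.36, adjusted p = 0.0997). The gene that rose was Higd1a, by 0.65 (adjusted p = 0.018), a call lost with the mean of its probe sets (0.079) and without control 2, control 3 or cKO 3.

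The lists for other parts of the mitochondrion had medians near that of all genes. Of 77 genes with Mrpl or Mrps symbols, the names of mitochondrial ribosomal proteins, 3 fell (Mrps36, Mrpl2 and Mrpl23) and 0 rose. Their median was -0.07. Only Mrps36 of the called genes kept its call under all alternatives, and its place in this list rests on its symbol alone. Of 24 import genes of the Timm and Tomm series 0 passed in the limma fit, with a median of -0.01. Of 15 genes of the outer membrane, abundant carriers and cristae 1 fell and 0 rose (median 0.02). The call, Chchd3 of the cristae junctions (-0.42, adjusted p = 0.041), was lost with median centring (0.16), quantile normalization, cyclic loess and without any 1 array, and with centring 0 fell and 1 rose, the ATP/ADP carrier gene Slc25a4 (0.62, adjusted p = 0.033). Of 50 cytosolic ribosomal protein genes 0 passed, with a median of 0.03 and a range from -0.25 to 0.22, and none passed under any of the 16 other settings and left-out arrays tried.

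**Figure D4:**
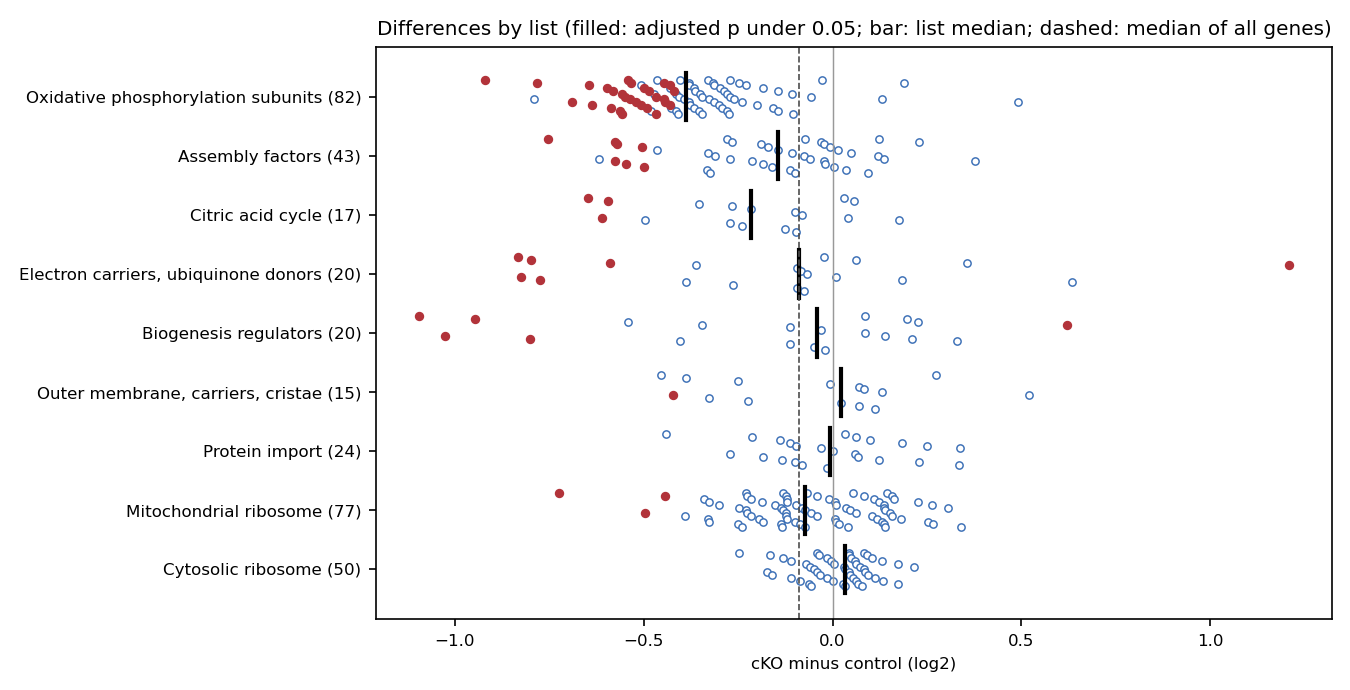
Each point is 1 gene's difference, cKO minus control on the log2 scale, with the number of genes in parentheses. Filled points passed an adjusted p of 0.05, black bars are list medians and the dashed line is the median of all genes (-0.09). The subunit genes form a band around -0.39, while the ribosomal and import lists centre near 0.

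Markers of the cell types in the wall are given by counts called, beside the shares of all genes (7.36% fell and 6.81% rose). Of 12 enterocyte markers 8 fell and 0 rose, with a median of -1.07, and the mean log2 level of the list was 11.1 to 11.6 on control arrays and 9.96 to 10.1 on cKO arrays. Of 12 general epithelial markers 0 fell and 5 rose (Cldn3, Krt8, Krt18, Krt19 and Krt20), with a median of 0.15 and list means of 10.78 to 11.02 and 11.27 to 11.32. Of the 12, 6 differences were below 0, and Lgals4 (-0.31, adjusted p = 0.098) and Vil1 (-0.31, adjusted p = 0.19) had all cKO values below the controls. The epithelial surface gene Epcam differed by -0.10 (adjusted p = 0.59), with a sign that turned with quantile normalization (0.02) and cyclic loess (0.07).

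Of 12 smooth muscle markers 11 rose (list means 9.68 to 9.95 in controls and 10.5 to 10.8 in cKO), of 11 fibroblast and matrix markers 11 rose (9.91 to 10.1 and 10.6 to 10.8), and of 12 myeloid and other leukocyte markers 9 rose (6.69 to 6.76 and 7.67 to 8.13). Of 10 neuron and glia markers 2 rose (7.16 to 7.39 and 7.47 to 7.61), of 12 endothelial markers 0 passed (8.01 to 8.05 and 8.16 to 8.26), and of 10 striated muscle markers 2 rose (7.49 to 7.62 and 7.561 to 7.998). Of 3 measured erythroid markers 0 passed (6.69 to 6.91 and 6.48 to 6.66), and of 8 germ cell markers 1, Sycp3, fell (5.40 to 5.45 and 4.71 to 5.04). Of these 102 marker genes 0 had a value of 0 on any array. The part of cell composition in the lower subunit values was not tested.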

How the data were processed

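Total RNA of 3 control and 3 cKO samples was measured on Affymetrix Mouse Gene 1.0 arrays and analysed with dChip, per the labels' series design text. The authors' deposited values, for 35512 probe sets on each array, were read as log2 from their range, with 75th percentiles of 7.91 to 7.97 and 147 to 173 values of 0 per array (0 in the 82 genes). The dChip version, background correction and normalization are not stated in any source used here. A wrong reading of the scale would change the percentages of control. Array values carry no read depth, so the number of arrays limits the precision.

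Of the probe sets, 21789 have 1 gene symbol in the platform annotation, 1621 several and 12102 none listed. Symbols were checked against the RefSeq gene table (GRCm38.p6) through the gene identifier for 21698, and 0 changed. The brightest probe set over the 6 arrays stood for each gene. All 19938 genes were fitted with limma 3.58.1 in R 4.3.3 (lmFit and eBayes, cKO minus control, two-sided, Benjamini-Hochberg, threshold 0.05), on the values as deposited and with each array median-centred. SE and 95% intervals are limma's moderated ones. The fit was tested on simulated data.

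Values on every array are given for Cdh1, the 4 genes with the smallest p per complex and direction, all of complexes II and III, the complex IV subunits with tissue forms and their counterparts (Cox4i1 to Cox8c), Ndufa4, Ndufa4l2, the subunit c genes and Atpif1, and, chosen after their values were seen, for Gpd2 and Esrra. Of the other lists up to 3 called genes per direction are named. The genes, lists and motifs were chosen with earlier results of these data known, and subgroups within complexes after the values were seen. Alternatives were other scalings, filters on dim genes, the mean of a gene's probe sets, array weights, a variance trend, the replicate number as a block and leaving out each array. Whether the same replicate numbers pair the samples is not known. Deviations from the group means correlated at -0.08, 0.13 and 0.14 for numbers 1, 2 and 3. For unlike numbers they correlated at -0.24 to 0.15. With 3 arrays per group these correlations cannot decide the question.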

Additional observations from a re-analysis of the deposited data

How the results depend on the processing

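Leaving out 1 array gave 2 to 17 subunit genes called lower, 0 to 1 called higher, 1226 to 2713 genes called in all and a Cdh1 difference of -1.30 to -0.64. In the counts that follow, the percentage in brackets is the share of all genes called lower in the same setting. The 28 subunit genes called lower (7.36%) became 9 with median centring (5.47%) and 13 with quantile normalization (7.20%). The replicate block gave 10 (6.13%), and whether the replicate numbers pair the samples is not known. Dropping the dimmest 25% of genes gave 43 (11.5% of the genes kept) and dropping 50% gave 53 (16.9%). Array weights gave 47 (14.6%) and a variance trend 50 (8.86%). Counts of all genes moved past 1.5 times only with array weights (5834) and left-out arrays. Called higher was 1 gene (Ndufa4l2) with median centring, quantile normalization, cyclic loess, both filters and array weights. Cdh1 passed after dropping 50% of genes (-0.95), with array weights (-0.89) and with a variance trend (-0.95).

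The medians stayed below 0 in every setting run. With median centring they were -0.29 over the 82 genes and -0.28, -0.25 and -0.32 for complexes I, III and V. With quantile normalization they were -0.24 over all and -0.27, -0.36, -0.19, -0.21 and -0.23 for complexes I to V. With cyclic loess they were -0.23, -0.19 and -0.29 for complexes III, IV and V, and with array weights -0.22 and -0.32 for IV and V. The other alternatives moved these medians by less than the spread between arrays.

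Signs turned only in genes that were not called: with median centring Cox6b2 (0.070), Cox8c (0.040) and Cycs (0.013), with quantile normalization Atp5a1 (0.024), Atp5g2 (0.10), Ndufb6 (0.074), Cox8c (0.063), Cycs (0.11) and Epcam (0.022), with cyclic loess Atp5a1 (0.042), Atp5b (0.040), Atp5g2 (0.015), Cox8c (0.060), Cycs (0.038) and Epcam (0.072), and with array weights Cox8c (0.12). Over left-out arrays Cox6b2 ran from -0.068 to 0.0017, Cox8c from -0.18 to 0.13 and Cox7b from -0.43 to 0.038. Of the 28 called genes, 2 (Ndufa6 and Uqcrq) kept their call in all 16 alternatives. The causes were not tested. Signal near background limits Cox7b2, Cox8c and Cox8b.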
